A study of Mus musculus with 6 samples.

Results

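The genes described here encode mitochondrial ribosomal proteins, and they were chosen by name: every gene whose symbol begins with Mrpl (large subunit) or Mrps (small subunit) and which a probe set of the array names alone. This gave 76 genes, 47 of the large and 29 of the small subunit, of 18193 genes named alone by a probe set. Each gene was read from the probe set with the highest mean over the 6 arrays, and all 76 were among the 12277 genes tested, since the dimmest of them, Mrps5, had a mean signal of 536, far above the filter on low values. Mrpl30 and Mrpl53 appear on the array only in probe sets shared with other genes and are not counted.

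The arrays measured RNA of endothelial cells, which form the inner lining of blood vessels, isolated from mouse lungs. Signals are the deposited intensities, in arbitrary units. There were 3 arrays of knockout cells, from mice that carry the VE-Cadherin-Cre transgene and floxed alleles of Hif-2a on both chromosomes, and 3 arrays of control cells. The labels describe the controls in more than one way: as VE-Cadherin-Cre animals with 1 floxed and 1 wild-type allele, as floxed/floxed, and as wild type. VE-cadherin is an endothelial gene, so the Cre recombinase is driven in endothelium. Both groups were kept at 0.5% oxygen for 16 h, so the arrays compare genotypes under low oxygen, and the response to low oxygen itself was not measured. HIF-2 alpha, encoded by Epas1, is a transcription factor that is stabilised when oxygen is low. Whether each array stands for its own animal or culture is not stated, so p-values measure the spread between these arrays, which may be technical. The age of the mice is not stated either. Over all genes tested, knockout 3 and control 2 stood apart from the other arrays of their groups, and controls 1 and 3 were the closest pair, with an SD of the log2 difference of 0.14, against 0.31 to 0.68 for the other pairs within a group.

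Mitochondria carry their own ribosome, which translates the few messages of mitochondrial DNA into membrane subunits of the respiratory chain and of ATP synthase. Its ribosomal RNAs come from mitochondrial DNA, whereas all its proteins are encoded in the nucleus, made in the cytosol and imported. Some of these proteins have counterparts in bacterial ribosomes, and others were added during the evolution of mitochondria. The small subunit holds the message and the decoding site, and the large subunit forms the peptide bond and releases the new chain through an exit tunnel.

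Most messages for mitochondrial ribosomal proteins had a higher mean level in knockout cells, in both subunits, and for a minority of them the difference passed the test. The difference between knockout and control arrays, on the log2(intensity + 16) scale, was positive for 72 of the 76 genes, with a median of 0.42, against a median of 0.0071 over all 12277 genes tested, of which 62% had a positive difference. At an adjusted p under 0.05 (limma, Benjamini-Hochberg over all genes tested), 13 members were higher in knockout cells, which is 17.1% of them. Over all genes the same rule called 8.63% higher. Only Mrpl33 was called lower, 1 of 76, where 5.07% of all genes were called lower, and 62 members did not pass in either direction. All 3 knockout arrays lay above all 3 control arrays for 47 members (61.8%), against 23.4% of all genes, and below them for Mrpl33 alone, against 12.8% of all genes. In the other 28 members the groups overlapped. Since the members are bright on these arrays, the 7364 genes with a mean signal at or above that of the dimmest member are the nearer background: 11.1% of these were called higher, 27.0% had knockout arrays wholly above control arrays, and their median difference was 0.035. Each array measured many cells together, so fewer cells of a type and less RNA per cell cannot be told apart.

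The count of calls rested on single arrays. It was 1 without knockout 1, 6 without knockout 2, 35 without knockout 3, 0 without control 1, 9 without control 2 and 0 without control 3, in limma fits on the 5 arrays left. In the fits without control 1 and without control 3, 25 members in each were higher at an unadjusted p under 0.05. The fit on all 6 arrays had 49 (64.5% of members, against 21.1% of all genes). No member was called in all 6 of these fits, while 69 members had a positive difference in every one of them. Without knockout 3 and control 2 together, 56 members were called higher, as were 2945 of all genes, and the members' median difference was 0.57. With controls 1 and 3 averaged into 1 sample, limma called 0 members higher (25 at an unadjusted p under 0.05). Leaving out an array moved the share of all genes called in the same way. Of all genes, 1.26% were called higher without knockout 1, 4.07% without knockout 2 and 16.2% without knockout 3. The share was 0.766% without control 1, 4.94% without control 2 and 0.904% without control 3. The counts of 0 and 1 members thus came where few genes of any kind were called.

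**Figure D1:**
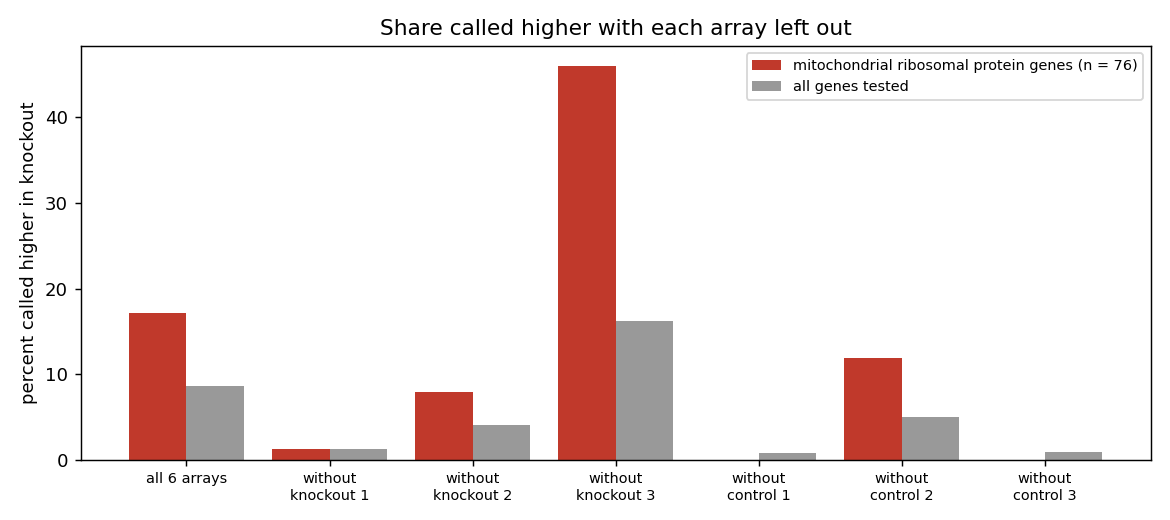
Percent of genes called higher in knockout cells (y axis, limma, adjusted p under 0.05) with all 6 arrays and with each array left out (x axis), for the 76 mitochondrial ribosomal protein genes (red bars) and all genes tested (grey bars). The share of members was 17.1% with all arrays, 46.1% without knockout 3 and 0 without control 1 or control 3.

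Among the arrays of a group, the members kept a common order. Knockout 2 was the highest knockout array for 57 members and knockout 1 for 14, while knockout 3 was the lowest for 68. Control 2 was the highest control array for 67. Knockout 1 lay above every control for 70 members, knockout 2 for 69 and knockout 3 for 50. A difference of this kind was also present over all genes tested, where 1 axis held 87.1% of the variance within groups. Knockout 3 lay at one end of it, and knockout 2 and control 2 lay toward the other. The labels give no batch. The mean log2 level of the bacterial bioB and bioC transcripts, which are added to the hybridisation in known amounts, was 11.03, 11.08 and 10.86 in knockout arrays 1 to 3, against 10.66, 10.88 and 10.78 in control arrays 1 to 3, so it was also higher in knockout arrays apart from an overlap of knockout 3 with control 2. With this level as a covariate the median difference of the members was 0.17, with 60 of 76 positive. There limma called none higher (11 at an unadjusted p under 0.05) and 1 lower (4 at an unadjusted p under 0.05). In the same fit 1.34% of all genes were called higher and 2.28% lower, with a median difference of 0.0015.

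**Figure D2:**
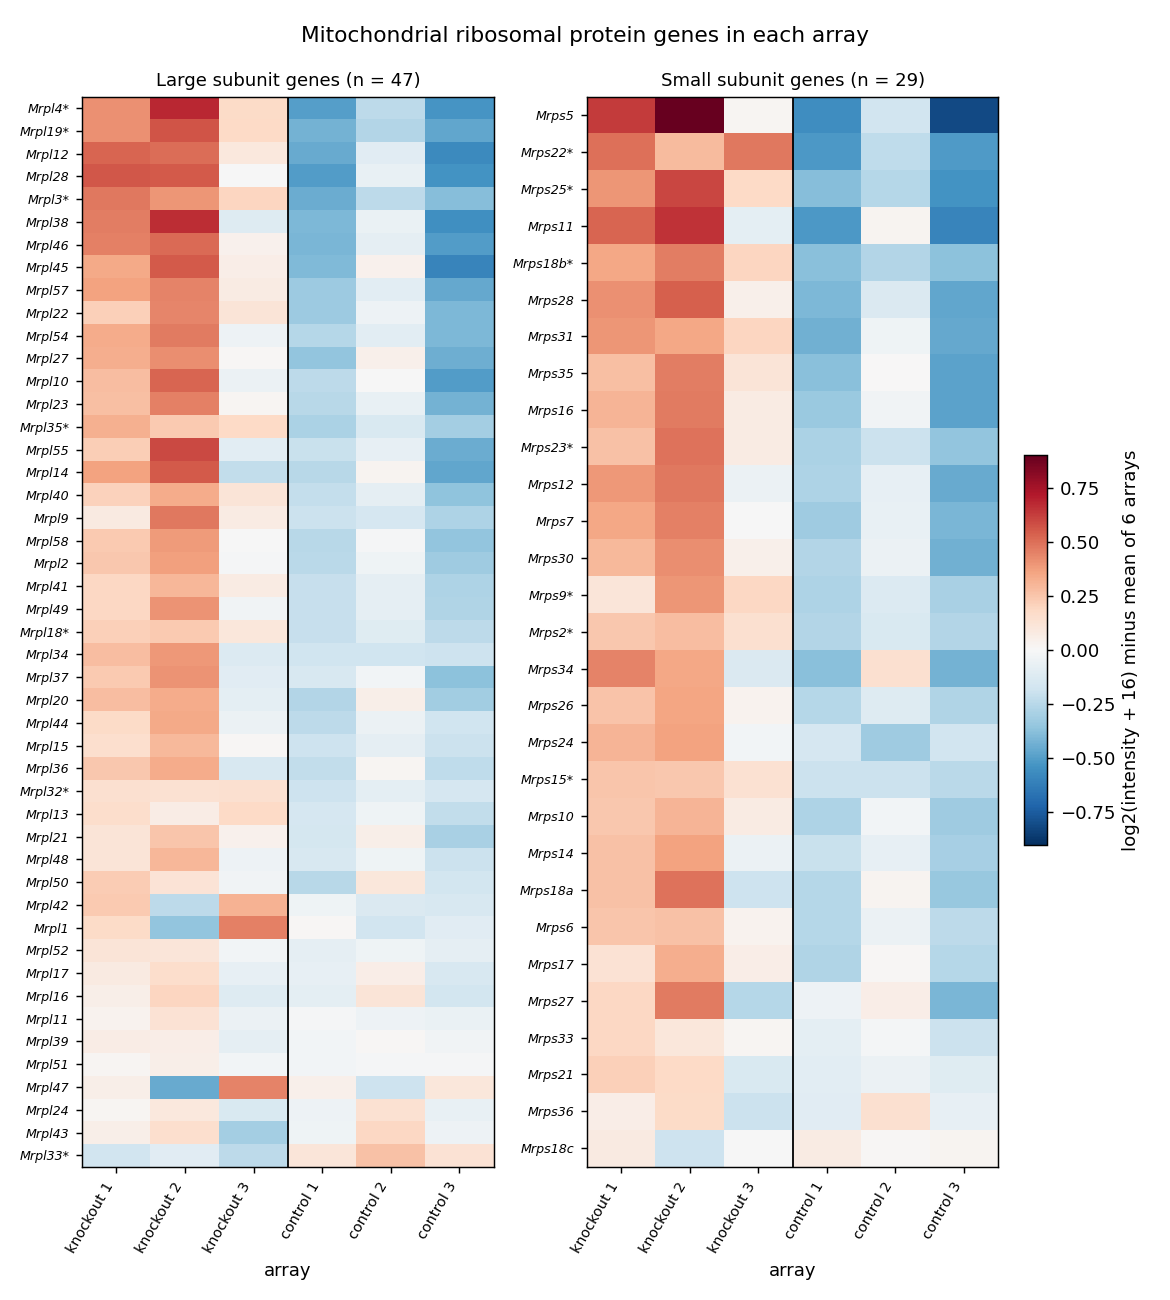
Level of each mitochondrial ribosomal protein gene in each array, as log2(intensity + 16) minus the gene's mean over the 6 arrays (colour), for 47 large subunit genes (left) and 29 small subunit genes (right), ordered by the difference between groups. An asterisk marks the 14 genes with an adjusted p under 0.05. Most rows are red in knockout 1 and knockout 2 and blue in control 1 and control 3, with knockout 3 and control 2 nearer to white.

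In the small subunit, 7 of 29 genes were called higher and 0 lower (limma; also 0 lower at an unadjusted p under 0.05), with a median difference of 0.45. Mrps22, a protein of the mitochondrial small subunit with no bacterial counterpart, had signals of 1683, 1449 and 1659 in knockout arrays, against 823, 1012 and 829 in control arrays. Every knockout array lay above every control, and this was a member for which knockout 3 was not the lowest of its group. The log2 difference was 0.84 ± 0.11 (SE, n = 3 arrays each), adjusted p = 0.0178. Mrps25, also a protein added in mitochondria, had 7749, 8920 and 6648 in knockout arrays and 4497, 4903 and 4025 in control arrays. The groups were well apart, with a log2 difference of 0.79 ± 0.14 and an adjusted p of 0.0315. Mrps18b is 1 of 3 mammalian relatives of a bacterial small subunit protein. Its signals were 15007, 16234 and 13435 in knockout arrays, against 9051, 9791 and 9062 in control arrays. They did not overlap, and the log2 difference was 0.67 ± 0.082 (adjusted p = 0.0158).

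The smallest adjusted p among the members belonged to Mrps15, a bacterial-type protein bound to small subunit RNA, rather than to a gene with a large change. It had 8206, 8144 and 7586 in knockout arrays, against 6029, 6017 and 5813 in control arrays. The arrays of each group lay close together, and the log2 difference was 0.42 ± 0.039 (adjusted p = 0.0095). Mrps15 stayed under the threshold in 4 of the 6 fits that left out an array, with an adjusted p of 0.0572 without control 1 and 0.0564 without control 3. Mrps2, another bacterial-type protein, had 4184, 4303 and 3920 in knockout arrays and 2944, 3209 and 2935 in control arrays (log2 difference 0.45 ± 0.055, adjusted p = 0.0161). The bacterial-type protein Mrps9 had 2714, 3315 and 2857 in knockout arrays and 2064, 2305 and 2043 in control arrays (0.46 ± 0.095, adjusted p = 0.0446). In both genes the groups were separate. Mrps23, a mitochondrial addition, had 5010, 5878 and 4395 in knockout arrays and 3421, 3646 and 3256 in control arrays. Its adjusted p of 0.0498 was the one nearest to the threshold among the calls.

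The member with the largest difference did not pass. Mrps5, the counterpart of a bacterial protein known for its part in decoding accuracy, had 766, 929 and 496 in knockout arrays, against 325, 431 and 270 in control arrays. The knockout arrays were all higher but spread widely, so that a log2 difference of 1.04 ± 0.30 came with an adjusted p of 0.0883. Mrps11, of the platform of the small subunit, showed the same with overlap: 1770, 1937 and 1155 in knockout arrays and 850, 1247 and 807 in control arrays, where knockout 3 lay below control 2. Its log2 difference was 0.73 ± 0.28 (adjusted p = 0.154). At the other end of the subunit stood Mrps18c, the third relative of the bacterial protein, with 8608, 7133 and 8099 in knockout arrays and 8556, 8190 and 8244 in control arrays. Knockout and control arrays were intermixed, and the log2 difference was -0.072 ± 0.077 (adjusted p = 0.583). The remaining relative, Mrps18a, overlapped between groups (0.38 ± 0.21, adjusted p = 0.294). Mrps36, which is now known better as a part of the alpha-ketoglutarate dehydrogenase complex than of the ribosome, had 3319, 3593 and 2791 in knockout arrays and 2966, 3532 and 3026 in control arrays, again overlapping (0.023 ± 0.12, adjusted p = 0.914). Mrps21, a bacterial-type protein, had a difference of 0.17 ± 0.11 with overlap.

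**Figure D3:**
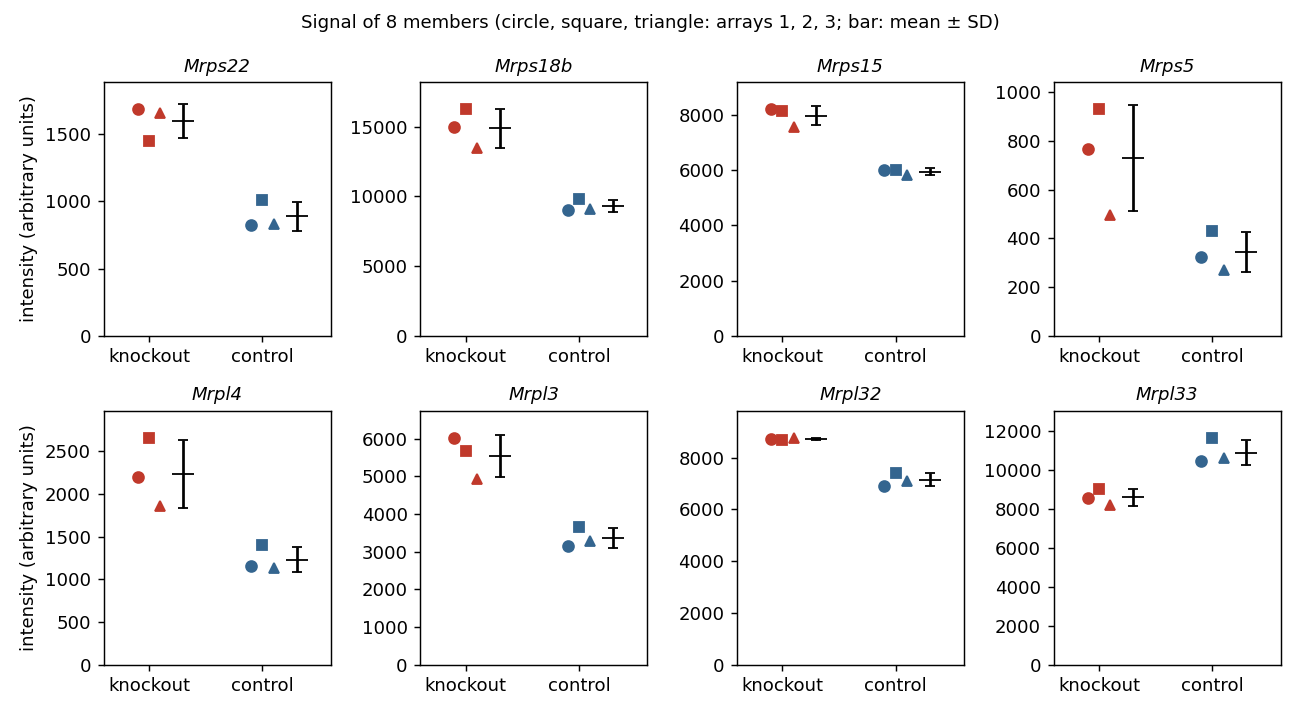
Signal in arbitrary units (y axis, starting at 0) of 8 mitochondrial ribosomal protein genes in knockout arrays (red, left) and control arrays (blue, right), with circle, square and triangle for arrays 1, 2 and 3 and black bars for the mean ± SD of 3 arrays. The groups are apart in all 8 genes, Mrpl33 is the gene with knockout below control, and Mrps5 has the widest spread among knockout arrays relative to its level.

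In the large subunit, 6 of 47 genes were called higher and 1 lower, and the median difference was 0.37. Mrpl4, the counterpart of a bacterial protein that reaches into the exit tunnel, had 2200, 2654 and 1857 in knockout arrays, against 1160, 1398 and 1132 in control arrays. All knockout arrays were above all controls, and the log2 difference was 0.85 ± 0.16 (adjusted p = 0.0394). Mrpl3, whose bacterial counterpart lies close to the site of peptide bond formation, had 6011, 5681 and 4931 in knockout arrays and 3151, 3650 and 3292 in control arrays. The groups were again apart (0.72 ± 0.098, adjusted p = 0.0195). Mrpl19, a bacterial-type protein, had 2720, 3025 and 2307 in knockout arrays and 1511, 1693 and 1462 in control arrays (0.77 ± 0.12, adjusted p = 0.0255). Mrpl35, also bacterial-type, had 5125, 4838 and 4637 in knockout arrays and 3359, 3722 and 3304 in control arrays (0.49 ± 0.064, adjusted p = 0.0179). Neither showed any overlap.

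Mrpl18 and Mrpl32 were called with small but even differences. Mrpl18, whose human counterpart takes part in the import of 5S ribosomal RNA, had 20991, 21395 and 19449 in knockout arrays, against 15640, 16820 and 15361 in control arrays (0.37 ± 0.055, adjusted p = 0.0233). Mrpl32, which a mitochondrial protease must trim before the large subunit can be assembled, had 8719, 8685 and 8747 in knockout arrays, against 6920, 7415 and 7115 in control arrays. The 3 knockout arrays were nearly equal, and a difference of 0.29 ± 0.030 had an adjusted p of 0.0122. Mrpl33, a small bacterial-type protein of the large subunit, went the other way, with 8576, 9015 and 8177 in knockout arrays and 10437, 11624 and 10600 in control arrays. Each knockout array was below each control. Its log2 difference was -0.34 ± 0.060 (adjusted p = 0.0322), and it was called in 1 of the 6 fits that left out an array, the fit without knockout 3. The call was also lost without a filter on low values and when the arrays were scaled to a common median or 75th percentile, where the difference kept its sign.

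Large differences without a call were found here too. Mrpl12, a protein of the stalk that recruits translation factors and that in mammals also binds mitochondrial RNA polymerase, had 10587, 10448 and 7861 in knockout arrays and 5364, 6838 and 4936 in control arrays. The groups did not overlap, but knockout 3 lay far below the other knockout arrays (0.75 ± 0.18, adjusted p = 0.0631). Mrpl28, a bacterial-type protein and the fourth largest difference among the large subunit genes, had 5365, 5339 and 3630 in knockout arrays and 2555, 3478 and 2499 in control arrays (0.74 ± 0.22, adjusted p = 0.0984). Mrpl28 and Mrps11 were named after their values were seen. Mrpl24 and Mrpl47, bacterial-type proteins of the exit tunnel region, and Mrpl43 showed the smallest differences apart from Mrpl33. Mrpl24 had 11028, 11607 and 9864 in knockout arrays and 10537, 11953 and 10386 in control arrays, and Mrpl43 had 5385, 5761 and 4191 in knockout arrays and 5030, 5886 and 5017 in control arrays. Both overlapped. Mrpl47 had 3924, 2758 and 5179 in knockout arrays and 3912, 3329 and 4061 in control arrays, with knockout 3 the highest and knockout 2 the lowest knockout array, the reverse of the order most members had. Mrpl1 and Mrpl42, noticed on the plot of levels by array, showed this reversed order too, and their differences were 0.18 ± 0.23 and 0.21 ± 0.16. So did Mrpl13, with 14903, 13968 and 15130 in knockout arrays, and Mrpl32, which was called higher and whose knockout arrays were nearly equal. Knockout 3 was the highest knockout array for 5 members in all.

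**Figure D4:**
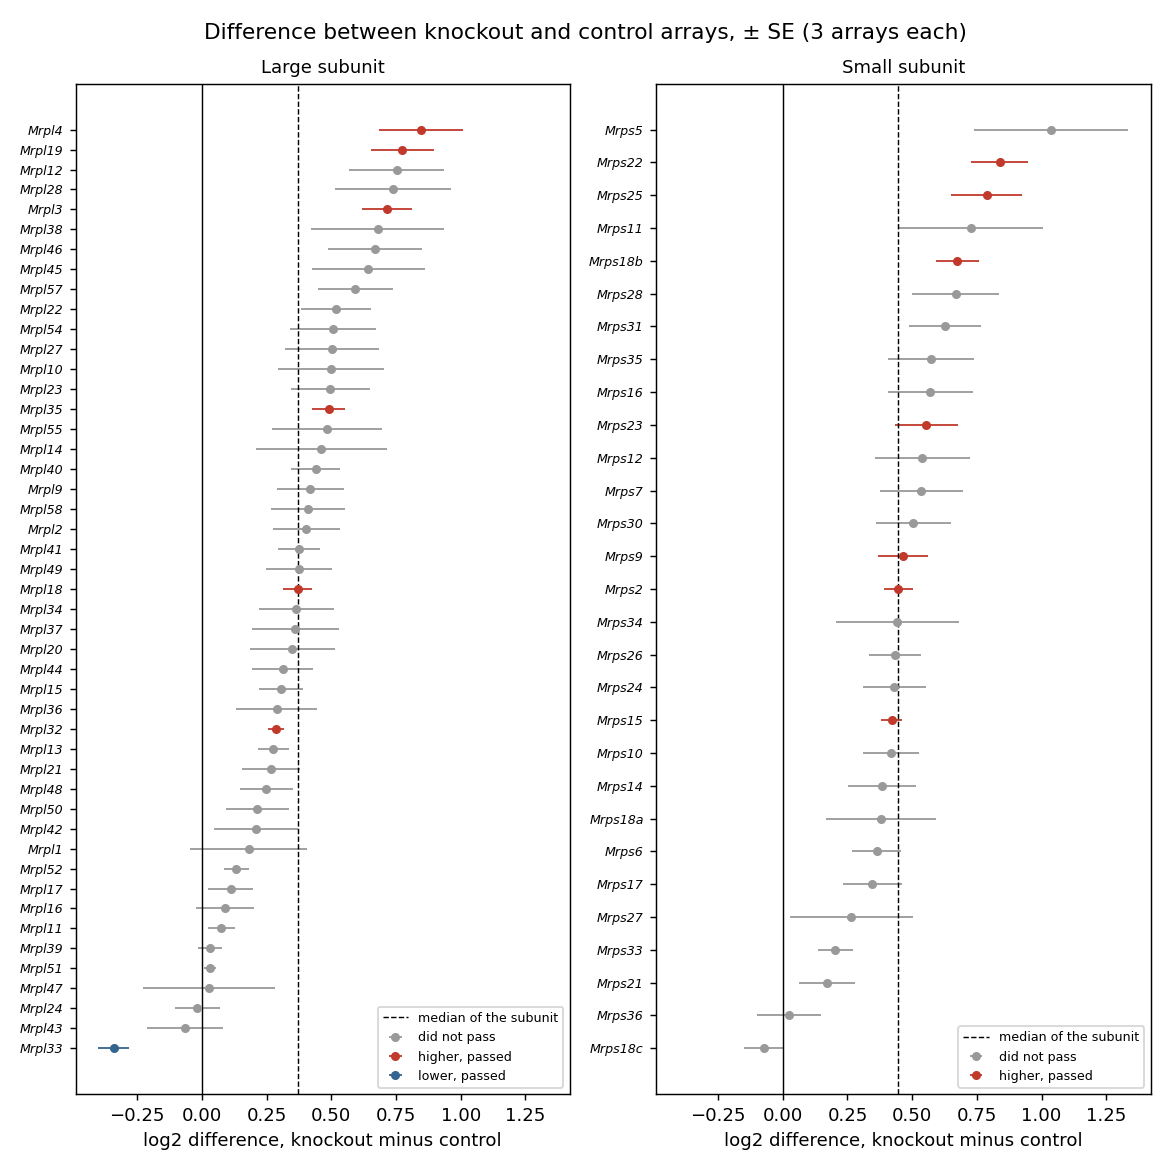
Log2 difference, knockout minus control (x axis), of each large subunit gene (left) and each small subunit gene (right), with bars for the SE from the limma fit over 3 arrays in each group. Red marks the 13 genes called higher, blue the gene called lower (Mrpl33) and grey the 62 genes that did not pass. Dashed lines mark the medians of 0.37 for the large and 0.45 for the small subunit.

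The medians of the subunits were close to each other. The share called higher was 12.8% in the large and 24.1% in the small subunit, and knockout arrays lay wholly above control arrays in 25 of 47 large and 22 of 29 small subunit genes. The large subunit's median of the log2 differences was lower than the small subunit's by 0.077. In each array, the median over genes of the level relative to the gene's own mean was 0.22, 0.34 and -0.0069 for the large subunit in knockout arrays and -0.21, -0.052 and -0.28 in control arrays. For the small subunit it was 0.27, 0.36 and 0.035 in knockout arrays and -0.28, -0.054 and -0.36 in control arrays. Large minus small was thus -0.045, -0.027 and -0.042 in knockout arrays and 0.066, 0.0022 and 0.074 in control arrays. The knockout values lay below the control values, and the gap was near nil in control 2. This gap was not tested, because the genes of a subunit are not replicates. Structures of the mammalian ribosome place Mrps18a and Mrps30 in the large subunit. Mrps30 had 5647, 6173 and 4767 in knockout arrays and 3828, 4452 and 3401 in control arrays, without overlap (0.50 ± 0.15, adjusted p = 0.0888). With both moved there the medians were 0.38 for the large and 0.45 for the small subunit.

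**Figure D5:**
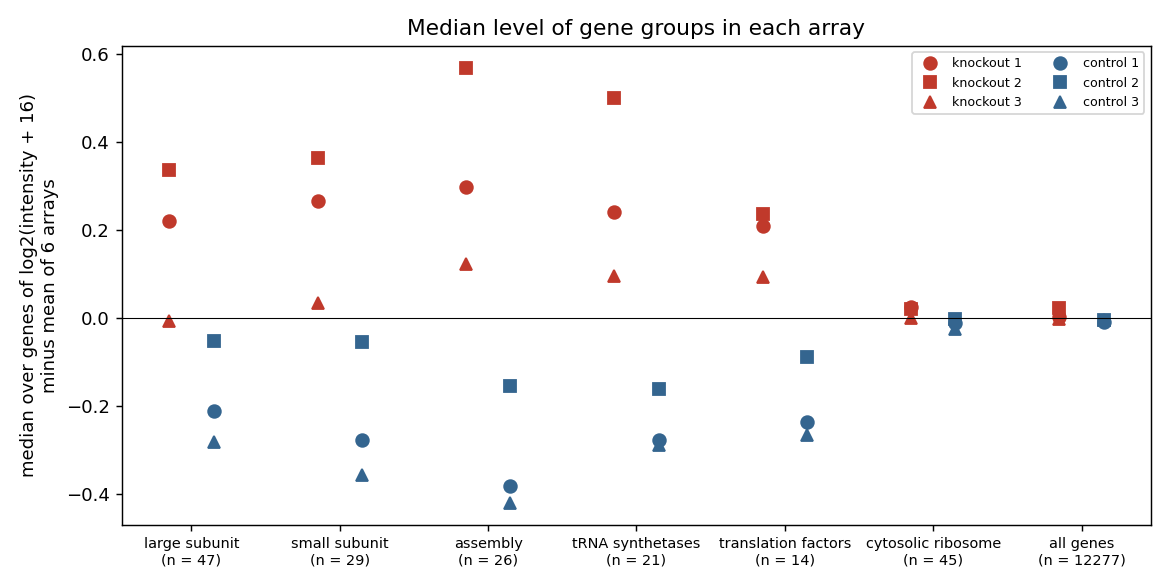
Median over the genes of a list of log2(intensity + 16) minus the gene's mean over 6 arrays (y axis), for each array (red for knockout, blue for control, with circle, square and triangle for arrays 1, 2 and 3) and each gene list (x axis). For both subunits, mitoribosome assembly genes, mitochondrial tRNA synthetases and translation factors, the 3 knockout arrays lie above the 3 control arrays, with knockout 3 the lowest knockout array and control 2 the highest control array, while the cytosolic ribosomal proteins and all genes tested stay close to 0.

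Within the subunits, the members were also counted by the origin and place of the proteins. These lists are small, and no difference between them was tested. Of 28 bacterial-type large subunit proteins, 6 were called higher and 1 lower (median 0.37), and of the 19 other large subunit proteins limma called 0, with 11 higher at an unadjusted p under 0.05 and a median of 0.38. So the medians of these lists were nearly equal although the calls were not. In the small subunit, 3 of 16 bacterial-type proteins (median 0.44) and 4 of 13 others (median 0.50) were called higher. The 13 others are not all mitochondrial additions to this subunit. They hold the called Mrps18b and Mrps18a, both relatives of a bacterial protein, as well as Mrps30 and Mrps36. Mrps18a and Mrps30 lie in the large subunit by structure. The stalk proteins gave 0 calls among 3 in limma (1 at an unadjusted p under 0.05). Beside Mrpl12, they are Mrpl10, which overlapped between groups (0.50 ± 0.20, adjusted p = 0.177), and Mrpl11, with 16191, 17374 and 15281 in knockout arrays and 15758, 15313 and 15228 in control arrays (0.075 ± 0.053, adjusted p = 0.394). The 7 proteins around the exit tunnel also gave 0 calls in limma (4 at an unadjusted p under 0.05) and had a median of 0.31. Mrpl45, which ties the ribosome to the inner membrane, was 0.64 ± 0.22 among them (adjusted p = 0.125), Mrpl22 0.52 ± 0.13 (0.0721), Mrpl23 0.50 ± 0.15 (0.102), Mrpl44 0.31 ± 0.12 (0.15) and Mrpl17 0.11 ± 0.086 (0.437).

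A list of 12 members in which human mutations are known to cause mitochondrial disease was drawn up by name. It need not be complete, and its counts depend on which members it holds. Of the 12, 5 were called higher (41.7%, against 8.63% of all genes): Mrps22, Mrps25, Mrpl3, Mrps23 and Mrps2. Over all genes, 62% had a positive difference and 23.4% had knockout arrays wholly above control arrays. The list is a part of the 76 members, of which 17.1% were called higher. Of these members 94.7% had a positive difference, with a median of 0.42, and 61.8% had knockout arrays wholly above control arrays. In this list all 12 had a positive difference, with a median of 0.56, and in 11 the knockout arrays were wholly above the control arrays. The exception was Mrps34, with 4433, 4121 and 2947 in knockout arrays and 2484, 3576 and 2399 in control arrays, where knockout 3 lay below control 2 (0.44 ± 0.24, adjusted p = 0.277). The log2 differences of the other genes of this list that did not pass were 0.67 for Mrps28, 0.57 for Mrps16, 0.54 for Mrps7, 0.38 for Mrps14, 0.31 for Mrpl44 and the 0.75 of Mrpl12 given above. With all lists of this paragraph and the one before, none of their genes was called higher in the fits without control 1 or without control 3.

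The members lie on 17 chromosomes, and genes of chromosome 9 were called higher more often than those of any other chromosome in these arrays. Of 681 genes tested there, 24.4% were called higher, with a median difference of 0.21, and the other chromosomes of the table had between 3.37% and 11.9%. The members on chromosome 9 are Mrpl3, Mrpl4 and Mrps22, and all 3 were called higher. Off chromosome 9, 10 of 73 members (13.7%) were called higher, where 7.71% of the genes there were, and knockout arrays lay wholly above control arrays in 60.3% of these members and 22.1% of these genes. The part that this property of chromosome 9 has in the calls of its 3 members was not tested.

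Different probe sets of a member mostly ran the same way. The array holds 156 probe sets for the 76 genes, of which 141 passed the filter on low values. Of the 65 that were not the brightest of their gene, spread over 35 genes, 57 had the sign of the chosen probe set. No share over all genes stands beside this count. Some of the 65 were so dim that their sign says little, such as 1 of Mrpl48 and 1 of Mrpl38 with knockout means of 5.2 and 5.3. Of the 65 further probe sets, 4 were called higher over all kept probe sets, those of Mrpl13, Mrpl19, Mrpl3 and Mrps15, and limma called 0 lower. In this same limma fit the chosen probe sets of Mrpl4 (adjusted p = 0.0541), Mrps9 (0.0607) and Mrps23 (0.0674) lost their calls. Mrpl15 was the member whose probe sets disagreed by more than 0.5 in opposite directions. Its chosen probe set had 5633, 6225 and 5111 in knockout arrays and 4457, 4791 and 4439 in control arrays (0.31 ± 0.084, adjusted p = 0.0807), and a dim probe set had 44.4, 57.6 and 146 in knockout arrays and 101, 98.3 and 85.6 in control arrays (-0.31 ± 0.41). Knockout 3 alone was above the controls in that dim probe set. Probe sets that by their suffix may also read other transcripts were chosen for 10 members. Of these, 2 were called higher, Mrpl19 and Mrps23.

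Since most members differed in the same direction, their promoters were read for short motifs. RefSeq's promoter table (GRCm38.p6) holds 67 of the members, 64 of them with a single listed start, and the 250 bases before the start were searched on both strands. The motifs were GCGC and TGCGC with any base between them for nuclear respiratory factor NRF1, CCGGAAG for ETS factors such as GABP (also called NRF2), AAGATGGCG for YY1, CCAAT, and the E-box CACGTG. NRF1 and GABP are known as activators of nuclear genes for mitochondrial proteins. ACGTG, the core that hypoxia-inducible factors bind, was counted as well and lies inside the E-box on both strands. The GC box GGGCGG and the TATA box TATAAA were counted too. The windows shown are those of the called members that hold an NRF1 or ETS motif and of Mrpl33, the member called lower, each read 5′ to 3′ on the gene's strand and ending at the base before the listed start. Capitals mark NRF1, ETS, YY1, CCAAT and E-box matches on either strand (ATTGG is CCAAT on the other strand).
Mrpl3 (chr9:105053018-105053267, + strand): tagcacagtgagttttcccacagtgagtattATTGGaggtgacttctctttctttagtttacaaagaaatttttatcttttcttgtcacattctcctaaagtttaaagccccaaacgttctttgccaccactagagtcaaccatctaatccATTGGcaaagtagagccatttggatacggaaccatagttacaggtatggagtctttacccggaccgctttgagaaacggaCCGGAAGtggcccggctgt
Mrps22 (chr9:98601680-98601929, - strand): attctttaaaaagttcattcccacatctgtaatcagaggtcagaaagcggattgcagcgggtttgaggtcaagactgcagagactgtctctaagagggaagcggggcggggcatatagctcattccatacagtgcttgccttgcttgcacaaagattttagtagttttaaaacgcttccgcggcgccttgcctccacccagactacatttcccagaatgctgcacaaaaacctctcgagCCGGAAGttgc
Mrpl18 (chr17:12916092-12916341, - strand): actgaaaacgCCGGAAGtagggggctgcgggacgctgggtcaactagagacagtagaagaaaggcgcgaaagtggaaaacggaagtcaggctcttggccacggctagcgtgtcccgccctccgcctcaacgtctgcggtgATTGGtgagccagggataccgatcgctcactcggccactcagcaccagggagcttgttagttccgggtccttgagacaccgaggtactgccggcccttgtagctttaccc
Mrpl32 (chr13:14613038-14613287, - strand): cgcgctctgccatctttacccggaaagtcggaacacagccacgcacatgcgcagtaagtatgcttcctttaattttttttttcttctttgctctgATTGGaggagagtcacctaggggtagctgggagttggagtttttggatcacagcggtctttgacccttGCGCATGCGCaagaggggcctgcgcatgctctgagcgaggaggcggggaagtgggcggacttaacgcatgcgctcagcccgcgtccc
Mrpl33 (chr5:31613701-31613950, + strand): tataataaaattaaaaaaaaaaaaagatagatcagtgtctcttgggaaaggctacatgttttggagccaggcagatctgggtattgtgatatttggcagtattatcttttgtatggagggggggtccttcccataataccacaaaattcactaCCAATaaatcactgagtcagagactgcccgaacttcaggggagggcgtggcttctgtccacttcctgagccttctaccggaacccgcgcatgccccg

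The window of Mrpl18 lies within the span that RefSeq's gene table gives for the gene, so it is not upstream of every annotated start, and this holds for 12 of the 64 windows. In the windows shown the ETS match begins 11 bases before the start in Mrps22, 19 bases before it in Mrpl3 and 240 bases before the start listed for Mrpl18, and the NRF1 match of Mrpl32 begins 87 bases before the start. The window of Mrpl33 holds a CCAAT match and none of the other capitalised motifs. Over the 64 members, the ETS motif was found in 15 (23.4%), against 14.1% of the tested genes and 7.09% of all promoters in the table. The NRF1 motif was found in 9 (14.1%), against 8.56% of the tested genes and 3.82% of all promoters. Of its 9 members, 8 were of the large subunit and 1 of the small. CCAAT was in 34.4% of members and 37.7% of tested genes, the YY1 motif in 3.13% and 1.16%, the E-box in 6.25% and 8.35%, and the ACGTG core in 18.8% and 21.8%. The GC box was in 46.9% of members and 59.0% of tested genes, and the TATA box in 6.25% and 7.04%. Among the 11 called-higher members with a window, 3 held the ETS motif, 1 the NRF1 motif and 2 the ACGTG core. These are counts of letters, and no binding was measured. Of the factors' own genes, Nrf1 had 777, 925 and 557 in knockout arrays and 365, 545 and 387 in control arrays, without overlap but with an adjusted p of 0.116. Gabpa had 1773, 1221 and 3433 in knockout arrays and 4469, 2828 and 4798 in control arrays, with overlap and an adjusted p of 0.213. Gabpb1 (-0.058 ± 0.085) and Yy1 (-0.056 ± 0.046) also overlapped.

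The rest of the machinery of mitochondrial translation was read in the same way, and 20 genes of the 5 lists were called higher and none lower. The shares called higher were 25% of the proteins under other symbols, 23.1% of assembly genes and 33.3% of the synthetase list. They were 21.4% of translation factors and 17.6% of the transcription and maintenance list. Over all genes 8.63% were called higher and 5.07% lower, and in lists this small a share rests on few genes. Among 4 mitochondrial ribosomal proteins that go by other symbols, Dap3, a GTP-binding protein of the small subunit, had 8800, 10098 and 8428 in knockout arrays and 6788, 7317 and 6710 in control arrays (0.39 ± 0.082, adjusted p = 0.0473). Of 26 genes for assembly of the mitochondrial ribosome, 6 were called higher, and the median was 0.56. The RNA helicase Dhx30 had 8039, 8763 and 7879 in knockout arrays and 5047, 5020 and 4999 in control arrays (0.71 ± 0.046, adjusted p = 0.00413). The pseudouridine synthase Rpusd4 had 3617, 3956 and 3000 in knockout arrays and 1319, 1688 and 1396 in control arrays (1.25 ± 0.15, adjusted p = 0.0145). No array of either gene overlapped with the other group. The helicase Ddx28 (0.54 ± 0.10) was called as well, as were Bola3 (0.56 ± 0.11), which is better known for inserting iron-sulfur clusters, and the GTPases Mtg1 and Noa1.

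Of 21 genes of mitochondrial aminoacyl-tRNA synthetases and of the amidotransferase that charges glutamine tRNA, 7 were called higher, with a median of 0.50. Lars2, the leucine enzyme, had 3246, 3423 and 2688 in knockout arrays and 1364, 1630 and 1442 in control arrays (1.07 ± 0.12, adjusted p = 0.0136). Cars2, the cysteine enzyme, had 1320, 1405 and 980 in knockout arrays and 494, 597 and 538 in control arrays (1.15 ± 0.16, adjusted p = 0.0209). Neither gene overlapped between groups. Mars2, the methionine enzyme (0.47 ± 0.050), and the amidotransferase subunit Gatc (0.37 ± 0.053) were the others with the smallest p. Kars and Gars, which serve cytosol and mitochondria alike, were among the 7. Of 14 translation factors and their helpers, 3 were called higher, with a median of 0.31: the recycling factor Mrrf (0.74 ± 0.13), the enzyme Mtfmt that formylates the initiator tRNA (0.81 ± 0.13), and the initiation factor Mtif3 (0.72 ± 0.16). Of 17 genes of mitochondrial transcription, RNA processing and DNA maintenance, Tefm (0.43 ± 0.063), a transcription elongation factor, Twnk (0.57 ± 0.10), the DNA helicase, and Elac2 (0.79 ± 0.17), a tRNA processing enzyme, were called higher, with a list median of 0.28. Of these genes, Dhx30, Rpusd4, Mtfmt and Lars2 lie on chromosome 9.

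In the fit without control 1, calls in these lists were down to 1 of the assembly genes and 0 in the other lists, and without control 3 to 1 assembly gene and 1 synthetase. Among 9 regulators of mitochondrial biogenesis limma called 0 (2 higher at an unadjusted p under 0.05), with a median of 0.0059. Cytosolic ribosomal proteins, the counterparts outside mitochondria, gave 5 calls higher among 45 genes tested (11.1%) and a median of 0.03. Those 5 were Rps25, Rps27l, Rpl14, Rpl7l1 and Rpl12, of which Rps25, Rps27l and Rpl14 are on chromosome 9. The median of the cytosolic list was 0.026, 0.021 and -0.0007 in knockout arrays and -0.012, -0.0026 and -0.024 in control arrays, so it kept close to the median of all genes in each array. No test compared it with the mitochondrial list. Among the members, the median difference was 0.50 in the 38 dimmer and 0.35 in the 38 brighter genes. The part of signal level in the contrast between the lists was not tested.

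Epas1, the gene deleted in the knockout, does not check the labels: its bright probe set had 8920, 9397 and 9859 in knockout arrays and 9611, 9590 and 9444 in control arrays, and the labels do not say which exons are removed. The markers of the labelled cell type were present, with Cdh5, Pecam1, Kdr and Emcn bright in both groups and Cldn5 and Vwf dim. The summed signal of 10 endothelial markers was lower in knockout arrays, at 90501 to 99763 against 113163 to 120834 in control arrays, with Pecam1, Tie1, Tek and Erg called lower. None of 8 fibroblast and mural markers and 6 lung epithelial markers exceeded a signal of 16 in any array. Of the leukocyte markers, Ptprc, Adgre1, Csf1r, Itgam and Cd3e were as low, and Cd68 averaged 971 in knockout arrays and 3925 in control arrays. The part of the endothelial markers' shift in the members' differences was not tested.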

How the data were processed

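RNA of lung endothelial cells was measured on 6 Affymetrix arrays, 3 of knockout and 3 of control cells, grouped by the labels. Per the labels' protocols, total RNA was amplified and labelled with the Nugen Ovation kit. The authors deposited a linear intensity for each probe set in each array. MAS5 and GCRMA appear in the submitters' processing notes; which of them made these values, and in which version, is not given in the sources used here. The added 16 understates fold changes of dim genes, and the number of arrays limits the precision.

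Probe sets were named from the platform annotation: of 45101, 64 were array controls, 34945 had 1 gene symbol, 932 had several (none named here) and the other 9160 were not listed. Probe sets in the lowest 40% by mean were left out, keeping 27023, and 12277 genes were tested through their brightest probe set. All 76 members matched the RefSeq gene table (GRCm38.p6) by gene number. Differences of log2(intensity + 16), knockout minus control, were fitted with limma (version 3.58.1, R 4.3.3), two-sided, with Benjamini-Hochberg adjustment over all genes tested and a threshold of 0.05. Standard errors are limma's moderated ones. The fit was tested on simulated data. Alternatives changed the filter, pseudocount, scaling, variance model, choice of probe set, arrays, replicate block and a spike-in covariate.

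Members, gene lists and tests were chosen with earlier results of these data known. Named with values were every called member, the 3 members of each subunit with the largest and the 3 with the smallest difference, members whose probe sets disagreed by over 0.5, members of the stalk, exit tunnel and disease lists, Mrps18a and Mrps30, and, of other lists, up to 4 called genes with the smallest p. Genes of NRF1, GABP and YY1, whose motifs were searched, are given too.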

Additional observations from a re-analysis of the deposited data

How the results depend on the processing

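Filter, pseudocount, scaling and variance model left 9 to 19 members called higher, apart from array weights. The share of all genes called higher moved too. It ran from 2.82% without a filter (9 members) to 13.4% with 60% of probe sets left out (19 members). Under array weights limma called 71 members and 40.8% of all genes higher, after its algorithm stopped before convergence. In either direction it called 8541 genes. Of the 14 calls, 9 to 14 were kept under these settings. Without any filter 883 genes were called over all. Of calls lower, none was left without a filter, at the 75th percentile scaling and at median scaling (0 each, with Mrpl33 at an unadjusted p under 0.05 in each). Leaving out 1 array gave 207 to 3008 genes called over all, 0 to 35 members called higher and 0 to 1 lower, with medians of 0.31 to 0.48 for the large and 0.41 to 0.57 for the small subunit and a large minus small difference of -0.10 to -0.075. Without control 2 and knockout 3 together, 4644 genes were called over all and 56 members higher, with a small subunit median of 0.68 and a large minus small difference of -0.16. With controls 1 and 3, the closest pair of arrays, averaged into 1 sample, 194 genes were called, with 0 members higher and 0 lower (25 and 1 at an unadjusted p under 0.05). With the spike-in covariate 444 genes were called in either direction, with 1.34% of all genes and 0 members higher. The medians were 0.13 (large) and 0.21 (small). With the mean of a gene's probe sets, large minus small was -0.12. Leaving out probe sets that may read other genes, an alternative added after seeing the data, gave 12 of 73 members higher.

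The replicate block gave 2995 genes called in either direction. It called 43 members and 16.9% of all genes higher. Same-numbered arrays deviated from their group means with correlations of -0.47, 0.84 and 0.80, and knockout 1 correlated best with control 2, so the numbers were not taken as pairs.

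Named genes with differences near 0 changed sign: Mrpl17 with the mean of probe sets (-0.0041) and the spike-in covariate (-0.065); Mrpl24 with median scaling (0.025), array weights (0.056) and without control 2 and knockout 3 (0.11); Mrpl43 with array weights (0.083) and without that pair (0.15); Mrpl47 without that pair (-0.28); Mrps18c with array weights (0.022) and the covariate (0.011); Mrps36 with controls averaged (-0.016) and the covariate (-0.27). Mrps21 (-0.028) did so with the covariate only. With the covariate only, Mrps18a (-0.084) and Mrps34 (-0.079) changed sign too, although their differences of 0.38 and 0.44 were not near 0. When single arrays were left out, Mrpl24 ranged from -0.068 to 0.049, Mrpl43 from -0.16 to 0.073, Mrpl47 from -0.19 to 0.26, Mrps18c from -0.13 to 0.0036, Mrps36 from -0.056 to 0.13, and Mrpl1, outside the rule for named genes, from -0.0011 to 0.41. The cause was not tested.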
